A study of Mus musculus with 12 samples.

Results

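Scn4b, Hcn2, Hcn4, Gja1, Gja5 and Gjc1 encode a sodium channel subunit, 2 pacemaker channels and 3 connexins that carry electrical excitation through the heart. They were taken by symbol from the deposited gene tables, as 6 of 25319 genes, and all 6 passed the filter on low counts that left 14965 genes. The RNA came from left ventricles of male C57BL/6 mice, 12 in all and 3 to a group. Surgery took place when they were 8 weeks old and the hearts were taken at 12 weeks. In transverse aortic constriction (TAC) a clip on the aortic arch raises the pressure against which the ventricle pumps, and in the sham operation no clip was set. Each kind of surgery had a control and a dantrolene group, and the dantrolene mice received 30 mg per kg per day for 4 weeks. Dantrolene is an inhibitor of ryanodine receptors, through which calcium leaves the sarcoplasmic reticulum. What the control mice were given in its place is not stated in the labels used here.

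The working heart muscle conducts because sodium channels depolarise each myocyte and gap junctions pass the current to the next. Scn4b encodes the beta-4 subunit, an accessory membrane protein that tunes the gating of sodium channels. HCN channels open on hyperpolarisation and carry the pacemaker current. Hcn4 is the main form of the sinoatrial node, and Hcn2 is the form usually found in ventricular myocytes. Connexins assemble into gap junction channels. Connexin 43 (Gja1) is the main connexin of ventricular myocytes, connexin 40 (Gja5) belongs to the atria, the fast conduction system and arterial endothelium, and connexin 45 (Gjc1) to the nodes and the early heart.

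On GRCm38, with gene bounds from GENCODE vM21, Scn4b lies at chr9:45138395-45154152, Hcn4 at chr9:58823412-58863175, Hcn2 at chr10:79716634-79736108 and Gja1 at chr10:56377330-56402513, all on the plus strand. Gja5 lies at chr3:96904693-97077416 on the plus strand and Gjc1 at chr11:102799579-102819700 on the minus strand. A far upstream first exon of Gja5 shares 165 bases (2.87% of its exon length) with the first exon of Gpr89 on the opposite strand, chr3:96905182-96905346. The library kit was directional, but the strand setting of the counting is not given, so reads there cannot be assigned to Gja5 or Gpr89 alone.

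Gja1 and Gja5, the connexins whose same-numbered pairs are set side by side below, have upstream sequences of different make-up in RefSeq (GRCm38.p6, plus strand, 5′ to 3′, the 150 bases before the annotated start). Capitals in Gja1 mark a GATA site (AGATAA, read on the opposite strand) and an AP-1 site (TGANTCA), and capitals in Gja5 mark an NKX2-5 core (AAGTG) and a GC box (GGGCGG). The 1st sequence is chr10:56377150-56377299 and the 2nd chr3:97032252-97032401.
Gja1: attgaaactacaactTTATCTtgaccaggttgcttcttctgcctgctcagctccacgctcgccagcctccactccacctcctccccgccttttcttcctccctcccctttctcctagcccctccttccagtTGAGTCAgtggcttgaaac
Gja5: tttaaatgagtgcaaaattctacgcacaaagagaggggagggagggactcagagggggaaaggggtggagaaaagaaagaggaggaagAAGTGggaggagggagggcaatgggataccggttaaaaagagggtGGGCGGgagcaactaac

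Over windows of 250 bases before to 50 after the start, searched on both strands, the AP-1 site was found in 7.81% of 32851 RefSeq promoters, the GATA site in 11.2%, the NKX2-5 core in 46.4% and the GC box in 35.7%. Gja1 held the first 2 and Gja5 the others. Hcn2 and Hcn4 also held a GC box, 5 of the 6 genes had a window, and a match describes letters and not a site in use. The T-box core GGTGTG (19.0% of promoters), the E-box CACGTG (7.15%) and the TATA element TATAAA (13.6%) were found in none of the 5 windows.

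Total counts were 25766378 to 38363106 per library. TAC control 1, TAC dantrolene 1, sham control 3 and sham dantrolene 3 stood apart from the 8 other libraries on the first principal component, which held 41.7% of the variance. In these 4 libraries levels, taken relative to each gene's mean over the 12 libraries, were lower the longer the gene. The slope was -0.07 to -0.29 log2 units per doubling of length, against 0.01 to 0.23 in the 8 others. The 4 libraries are 1 mouse of each group, and results are given with and without them. Ventricular myocyte markers summed to 61409 to 102826 CPM (counts scaled to a common library size by TMM, edgeR's trimmed mean of M values), and the atrial genes Myl7 and Sln reached at most 47 and 37 reads in any library. Among the node markers Vsnl1 had at most 4 reads, Isl1 at most 1 and Shox2 at most 9. These atrial and node genes are the lowest of their lists. Other atrial markers had more, with Myl4 at 55 to 242 reads and Stard10 at 1140 to 4843. Other node markers ran from Cpne5 at 0 to 21 reads up to Irx3 at 199 to 1524 and Smoc2 at 1739 to 3763. The tissue is a mixture of cells, so fewer cells of a type and less RNA per cell cannot be told apart.

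Scaled by the gene lengths behind the deposited values, Gja1 was the most abundant of the 6 genes. Mean FPKM (fragments per unit of gene length and library size) over the 12 libraries was 27.0 ± 13.7 for Gja1, 12.9 ± 4.37 for Hcn2 and 9.21 ± 4.05 for Scn4b (SD, n = 12). It was 2.91 ± 1.18 for Gjc1, 2.56 ± 0.44 for Gja5 and 1.37 ± 0.63 for Hcn4 (SD, n = 12), and Hcn4 rested on 78 to 306 reads per library. By the deposited FPKM Gja1 stood at the 88.5th percentile of the genes tested and Hcn4 at the 41.2nd. The upper 3 exceeded the lower 3 in every library. Within the upper 3 the order varied. Gja1 led in the 8 libraries and Hcn2 in the 4 apart, and Hcn2 exceeded Scn4b in 8 of 12. Gja5 exceeded Gjc1 in 6 of 12 libraries, so these neighbours did not differ beyond their spread, and Gjc1 exceeded Hcn4 in 9 of 12. The order rests on the lengths used. With the totals of the deposited counts as library size, the FPKM of Gja1 implies 3599 bases, against 10257 bases of annotated exons. For Hcn2 it implies 3703 against 3195, for Scn4b 5726 against 4982 and for Gja5 6586 against 5746. For Gjc1 it implies 3152 against 5003 and for Hcn4 4396 against 6118. The library size behind the FPKM is not given, so the implied lengths may all be off by a common factor. That of Scn4b, 5726, exceeds the 4982 bases of its 1 annotated transcript. Mean CPM, not divided by length, was 91.8 for Gja1, 50.5 for Scn4b and 50.3 for Hcn2. The annotated exons of Gja1 exceed those of Scn4b and Hcn2 by a larger factor than its CPM does. Per base of annotated exon Gja1 would thus stand below both, so its lead holds only for the deposited FPKM. The full order with 1 length rule for all 6 was not computed.

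Scn4b had its lowest group mean in TAC control. Sham control mice 1 to 3 had 55.8, 59.0 and 38.1 CPM, and TAC control mice 1 to 3 had 24.5, 50.3 and 35.3. The ranges overlap, and the lowest mouse of each group is a library apart. With dantrolene the values were 71.8, 45.2 and 50.4 CPM in sham mice 1 to 3 and 32.8, 74.5 and 68.7 in TAC mice 1 to 3. Each TAC dantrolene mouse stood above the TAC control mouse of its number, by 1.34-, 1.48- and 1.95-fold. In edgeR's quasi-likelihood fit over all 14965 genes the difference between TAC dantrolene and TAC control was 0.68 on the log2 scale (SE 0.36, 95% interval -0.11 to 1.46, unadjusted p = 0.0856, adjusted p = 1.00). It did not pass. With the mouse number as a block it was 0.61 (SE 0.20, unadjusted p = 0.0163, adjusted p = 0.688), where 6.74% of genes had an unadjusted p under 0.05. The labels do not say that mice of the same number belong together. Averaged over both arms the blocked drug difference was 0.39 (SE 0.14, unadjusted p = 0.0189, adjusted p = 0.958), where 4.2% of genes did. Without the 4 libraries the difference in TAC mice was 0.74 (SE 0.26, adjusted p = 0.126). TAC control against sham control gave -0.47 (SE 0.36, adjusted p = 0.758).

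**Figure D1:**
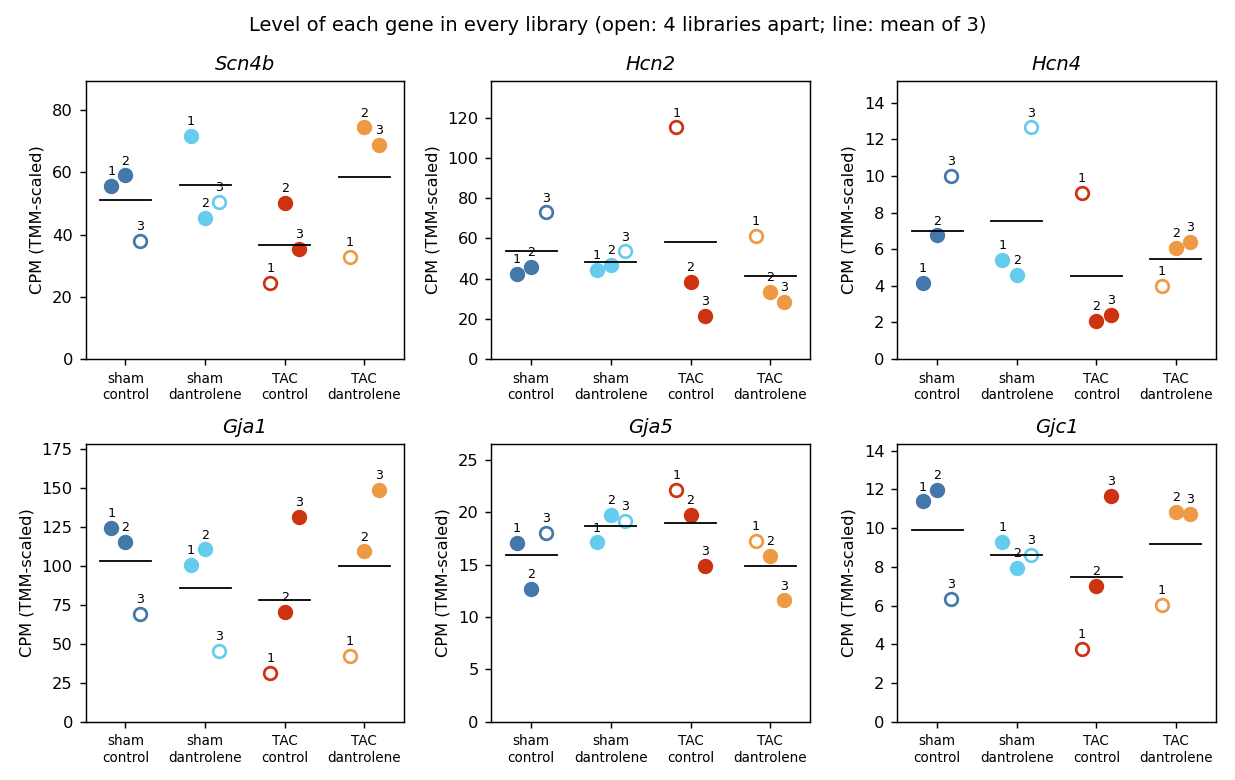
CPM (vertical axis, TMM-scaled, from 0) of each gene in the 12 libraries, by group (horizontal axis); numbers are the mouse numbers, open circles the 4 libraries apart, lines the mean of 3 mice. The open circles of Gja1 (31.4 to 69.5) lie below all filled ones and those of Hcn2 (53.5 to 115) above them, while Hcn4 in TAC control spans 2.08 to 9.06.

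Hcn2 was highest in the 4 libraries apart. It measured 42.1, 45.8 and 72.9 CPM in the sham controls, mice 1 to 3, and 44.5, 47.0 and 53.5 in the sham mice on dantrolene. In TAC control mice 1 to 3 it measured 115, 38.4 and 21.2, and in TAC dantrolene mice 1 to 3 it measured 61.1, 33.5 and 28.6. Mouse 1 of TAC control lay 5.42-fold above mouse 3 of the same group. All 4 libraries apart (53.5 to 115 CPM) lay above all 8 others (21.2 to 47.0). TAC control differed from sham control by 0.12 (log2, SE 0.51, adjusted p = 0.960) with 12 libraries and by -0.58 (SE 0.27, adjusted p = 0.209) without the 4, so the direction turned.

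Hcn4, the node form, was low in 2 of the 3 TAC control mice. Sham control mice 1 to 3 had 4.15, 6.75 and 10.01 CPM, and sham dantrolene mice 1 to 3 had 5.41, 4.60 and 12.6. TAC control mice 1 to 3 had 9.06, 2.08 and 2.41, and TAC dantrolene mice 1 to 3 had 4.01, 6.06 and 6.39. TAC control mice 2 and 3 lay below every other library, while TAC control 1, a library apart, lay above 9 of the 11 others. With all 12 libraries the differences were -0.63 (log2, SE 0.59, adjusted p = 0.797) for TAC control against sham control and 0.29 (SE 0.59, adjusted p = 1.00) for TAC dantrolene against TAC control. Neither passed.

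Without the 4 libraries, which leaves 2 mice per group and was decided after the data were seen, Hcn4 rose in TAC dantrolene against TAC control by 1.47 on the log2 scale (SE 0.33, 95% interval 0.75 to 2.20, adjusted p = 0.0428 by edgeR). It was the only call among the 6 genes in that comparison, where 3.17% of 15069 genes passed. TAC control against sham control gave -1.30 (SE 0.33, adjusted p = 0.0562), which just missed, with 3.21% of genes passing. The interaction, the test of whether dantrolene acted differently in the 2 surgery arms, gave 1.58 (SE 0.46, adjusted p = 0.209) and did not pass. Leaving out TAC control 1 alone gave no call, at 1.29 (SE 0.52, adjusted p = 0.549).

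Gja1, which forms the main gap junction of ventricular myocytes, spread widely within groups. It measured 124, 116 and 69.5 CPM in the sham controls, mice 1 to 3, and 101, 111 and 45.6 in the sham mice on dantrolene. In TAC control mice 1 to 3 it measured 31.4, 70.7 and 132, and in TAC dantrolene mice 1 to 3 it measured 42.3, 110 and 149. The 4 libraries apart (31.4 to 69.5) lay below all 8 others (70.7 to 149). The fitted differences were -0.40 (log2, SE 0.55, adjusted p = 0.859) for TAC control against sham control and 0.36 (SE 0.55, adjusted p = 1.00) for TAC dantrolene against TAC control. The 95% interval of the first, -1.59 to 0.78, holds both a 2-fold lower level and no difference. Gja1 and Hcn2 are the 2 of 6 genes that did not overlap between the 4 libraries and the 8. Of all genes 21.9% did not.

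Gja5 varied least of the 6, with a 1.91-fold range over the 12 libraries. Sham control mice 1 to 3 had 17.1, 12.7 and 18.1 CPM and sham dantrolene mice 1 to 3 had 17.1, 19.7 and 19.1. TAC control mice 1 to 3 had 22.1, 19.8 and 14.9, and TAC dantrolene mice 1 to 3 had 17.3, 15.9 and 11.6. The ranges overlap in every comparison. TAC control against sham control gave 0.25 (log2, SE 0.26, adjusted p = 0.817) and TAC dantrolene against TAC control gave -0.34 (SE 0.26, adjusted p = 1.00). With scaling to library totals the first became -0.01. Gpr89, the antisense neighbour, measured 13.9 to 22.1 CPM.

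Gjc1 was lowest in TAC control 1, as Gja1 was. Sham control mice 1 to 3 had 11.4, 12.0 and 6.35 CPM and sham dantrolene mice 1 to 3 had 9.27, 7.96 and 8.60. TAC control mice 1 to 3 had 3.77, 7.03 and 11.7, and TAC dantrolene mice 1 to 3 had 6.03, 10.8 and 10.7. The lowest mouse of each group but sham dantrolene was a library apart. TAC control against sham control gave -0.40 (log2, SE 0.41, adjusted p = 0.811) and TAC dantrolene against TAC control gave 0.29 (SE 0.41, adjusted p = 1.00).

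Across the design, 0 of the 6 genes passed an adjusted p of 0.05 with 12 libraries in any of 7 comparisons, by edgeR or by DESeq2, and 0 had an unadjusted p under 0.05 by edgeR without the replicate block. The background was as low: edgeR called 0% of all genes in each of the 7. At an unadjusted p under 0.05 it called 7.93% of genes for TAC control against sham control, 3.25% for TAC dantrolene against TAC control and 0.715% for sham dantrolene against sham control. The shares were 1.71% for TAC dantrolene against sham dantrolene, 2.82% for the interaction, 6.78% for all TAC against all sham mice and 1.04% for all dantrolene against all control mice. Groups of 3 that did not overlap in CPM numbered 0 of the 6 genes in each of 4 pairwise comparisons. Over all genes these shares were 17.4% for TAC control against sham control, 4.76% for TAC dantrolene against TAC control, 7.37% for sham dantrolene against sham control and 4.86% for TAC dantrolene against sham dantrolene. In simulated counts of the real spread the fit recovered 1.33% of 2-fold, 22.7% of 4-fold and 62.7% of 8-fold changes between TAC control and sham control, so a 2-fold difference was mostly not detectable.

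**Figure D2:**
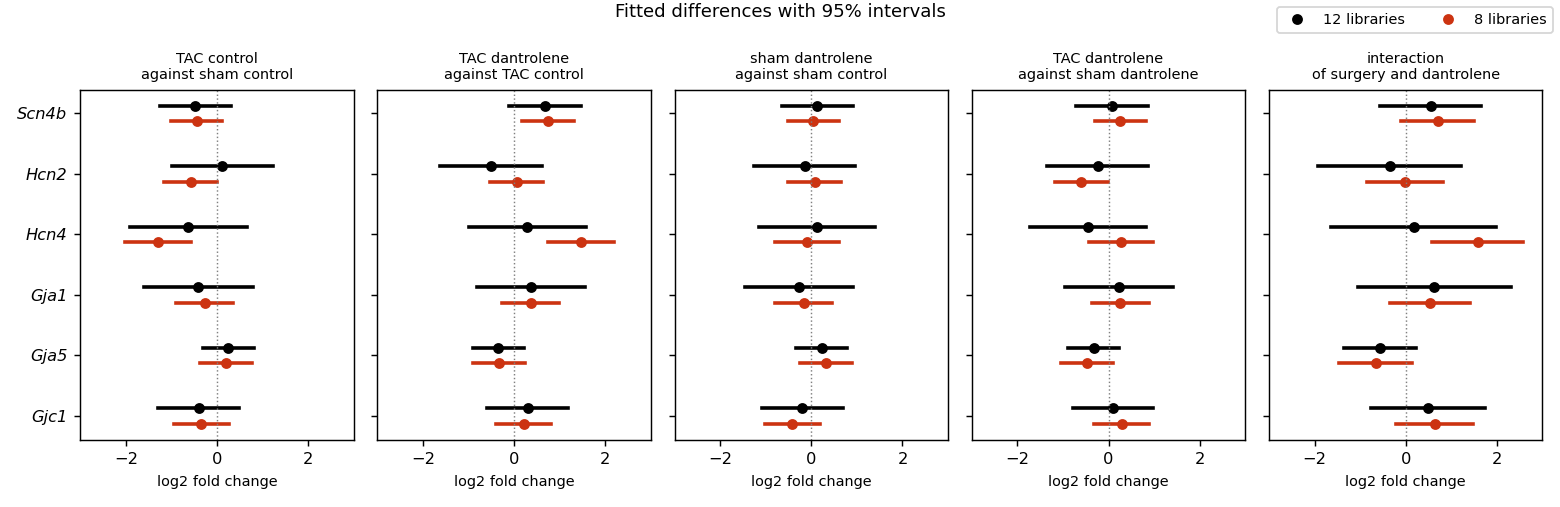
Log2 fold change (horizontal axis) of each gene (vertical axis) in 5 comparisons, with 95% intervals, from 12 libraries (black, 3 mice per group) and from the 8 libraries that do not stand apart (red, 2 per group). All black intervals include 0; the red one of Hcn4 for TAC dantrolene against TAC control runs from 0.75 to 2.20.

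In sham mice none of the 6 genes passed between dantrolene and control, which does not show that their levels were alike. The differences ran from -0.27 (Gja1, SE 0.55) to 0.23 (Gja5, SE 0.26) on the log2 scale, each with an adjusted p of 1.00. TAC dantrolene against sham dantrolene ran from -0.46 (Hcn4, SE 0.59) to 0.23 (Gja1, SE 0.55), again with adjusted p of 1.00. These comparisons share groups with the ones above and are not independent of them.

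Gja1 and Gja5 stood in contrast when mice of the same number were set side by side. Gja1 was lower with dantrolene in all 3 sham pairs, by -0.30, -0.06 and -0.61 on the log2 scale, and higher in all 3 TAC pairs, by 0.43, 0.63 and 0.18. Gja5 was the reverse, at 0.0012, 0.64 and 0.08 in sham and -0.36, -0.32 and -0.36 in TAC. The first sham pair of Gja5 is a tie in practice. With library totals its 3rd sham pair became -0.04 and its 2nd TAC pair 0.04, so the Gja5 pattern depends on the scaling, while Gja1 kept its signs under the 3 other scalings tried. The pattern of opposite signs in all pairs was met by 2 of 6 genes and by 6.62% of all genes (990, of which 604 were lower in sham and higher in TAC).

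The ratio of Gja5 to Gja1 counts needs no scaling between libraries. With dantrolene its log2 moved by 0.30, 0.70 and 0.69 in the sham pairs and by -0.79, -0.95 and -0.54 in the TAC pairs. The signs are the same within each arm and opposite between arms, also in the pairs of libraries apart. They follow from the moves of Gja1 and Gja5 given above, which had opposite signs in every pair, so they add no separate evidence. No share over other pairs of genes is given for comparison. Within an arm, same-numbered mice deviated together over all genes, and so did some mice of unlike number. The labels name no pairing. A fit with the replicate number as a block was run on the assumption that the numbers pair mice. In it the interaction was 0.74 for Gja1 (SE 0.23, unadjusted p = 0.0107, adjusted p = 0.419 by edgeR) and -0.58 for Gja5 (SE 0.25, unadjusted p = 0.0432, adjusted p = 0.428). In this fit 11.6% of all genes had an unadjusted p under 0.05. Neither gene passed, and without the block they were 0.63 (SE 0.77) and -0.57 (SE 0.36), with adjusted p of 1.00. This pattern was picked after the values were seen.

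**Figure D3:**
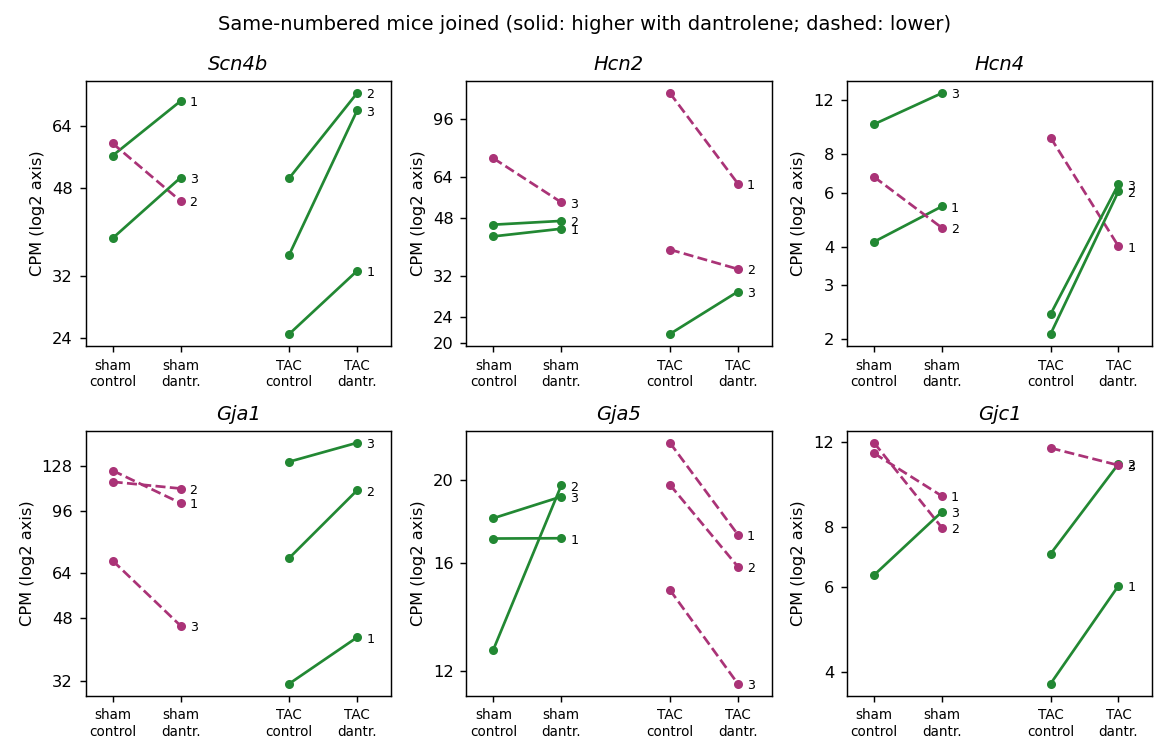
CPM on a log2 axis in control and dantrolene mice of the same number (joined), in the sham arm (left of each panel) and the TAC arm (right). Gja1 lines go down in 3 of 3 sham pairs and up in 3 of 3 TAC pairs; Gja5 lines are level or up in sham and down in 3 of 3 TAC pairs.

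Ratios between related genes did not differ between all TAC and all sham mice, or all dantrolene and all control mice, beyond their spread. The log2 FPKM ratio of Gja5 to Gja1 was -3.08 ± 1.21 in TAC and -3.26 ± 0.69 in sham (SD, n = 6). Gjc1 to Gja1 stayed closest, at -3.11 ± 0.34 in TAC and -3.11 ± 0.47 in sham. Hcn4 to Hcn2 was -3.09 ± 0.73 with dantrolene and -3.58 ± 0.54 in controls, a difference of 0.49. In 6 two-sided exact permutation tests of 6 mice against 6, this difference had the smallest raw p, 0.210 (adjusted p = 0.994 over the 6), and the other raw p ran from 0.377 to 0.994. In TAC mice 2 and 3 the ratio of Hcn4 to Hcn2 was higher with dantrolene by 1.73 and 0.99, and in TAC mouse 1, of 2 libraries apart, it changed by -0.26.

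**Figure D4:**
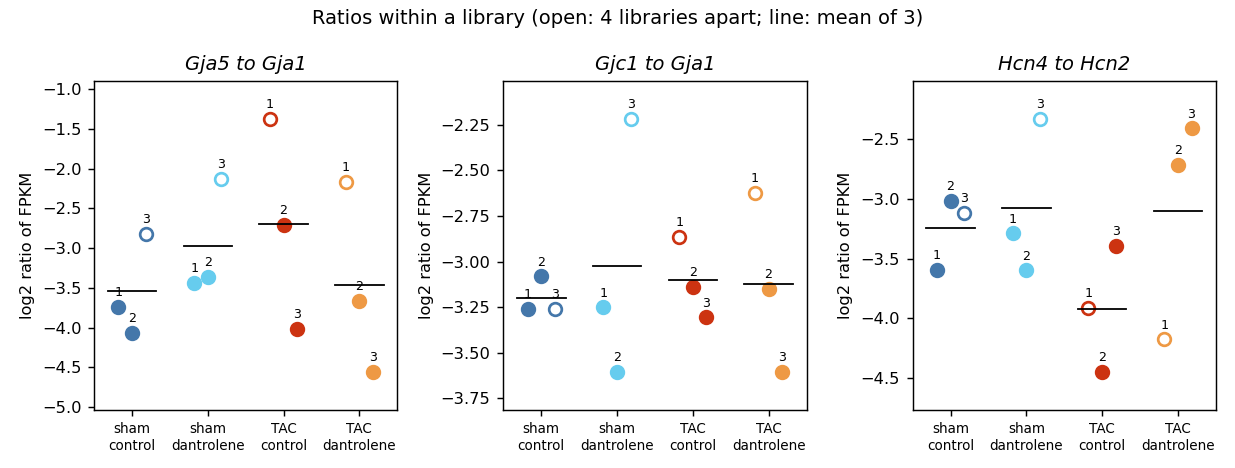
Log2 ratio of FPKM within each library (vertical axis, not starting at 0) for 3 pairs of genes, by group (horizontal axis); numbers are mouse numbers, open circles the 4 libraries apart, lines the mean of 3. Ratios of Gja5 to Gja1 span -4.55 to -1.38, and in each group the library apart is the highest.

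Over the 8 libraries that do not stand apart, the log2 CPM of Gja1 and Gjc1 correlated with Pearson r = 0.78 (exact permutation p = 0.0182) and Spearman rho = 0.60 (p = 0.132). Gja5 went against both, with r = -0.71 (exact permutation p = 0.0448) and rho = -0.79 (p = 0.0279) for Gja1, and r = -0.74 (p = 0.0363) and rho = -0.74 (p = 0.0458) for Gjc1. Scn4b and Hcn4 had r = 0.74 (exact permutation p = 0.0380) and rho = 0.67 (p = 0.0831). Over the 15 pairs of genes computed, the adjusted p of each of these was 0.168 for r and at least 0.312 for rho, so none passed. Without the 2 libraries farthest from the median of the first gene, r was 0.61 for Gja1 with Gjc1, -0.31 for Gja1 with Gja5, -0.91 for Gja5 with Gjc1 and 0.56 for Scn4b with Hcn4. The relation of Gja1 to Gja5 thus rests largely on 2 libraries.

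Among other sodium channel subunits, 6 of the 12 listed were tested and 0 passed in TAC control against sham control or in TAC dantrolene against TAC control. In TAC control against sham control Scn7a gave 1.19 (log2, SE 0.47, adjusted p = 0.563) and Scn10a gave -1.20 (SE 0.51, adjusted p = 0.602). The list's median was -0.15 against 0.10 for all genes. In TAC dantrolene against TAC control it was 0.12, against 0.02 for all genes.

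Of 11 sodium channel partners 9 were tested and 0 passed in either comparison. In TAC dantrolene against TAC control 8 of the 9 fitted values were positive, with a median of 0.33 against 0.02 for all genes, and in TAC control against sham control 6 were negative. Nedd4l, a ubiquitin ligase that takes sodium channels from the membrane, gave -0.96 (SE 0.37, adjusted p = 0.558) and then 0.77 (SE 0.36, adjusted p = 1.00). Gpd1l gave -0.64 (SE 0.29) and then 0.53 (SE 0.29). Dlg1, a scaffold protein, gave 0.69 (SE 0.31, adjusted p = 0.616) in the first.

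Hcn3, another HCN channel, stood at 0.093 FPKM, far below Hcn2 and Hcn4. With 5 of 7 HCN channels and regulators tested, 0 passed in either comparison. Lrmp, a regulator of Hcn4, gave 0.76 (log2, SE 0.34, adjusted p = 0.613) in TAC control against sham control. Of 16 other connexins in the table, 13 did not pass the filter on low counts. Gja4 (connexin 37, an endothelial connexin) was the most abundant of them at 9.51 FPKM, above Gja5 and Gjc1, and 0 of the 3 tested passed.

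All 16 partners of the intercalated disc, the junction where myocytes meet and gap junctions lie, were tested and 0 passed with 12 libraries. Xirp2, an actin-binding protein of the disc, was the furthest, at 1.37 (log2, SE 0.52, adjusted p = 0.558) in TAC control against sham control and -1.44 (SE 0.52, adjusted p = 1.00) in TAC dantrolene against TAC control. Without the 4 libraries it was the list's single call in each, at 1.87 (adjusted p = 0.0203) and -1.86 (adjusted p = 0.0237), or 1 of 16 where 3.21% and 3.17% of all genes were called.

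Of 15 transcription factors of cardiac conduction genes 14 were tested and 0 passed with 12 libraries. The median was -0.33 (log2) in TAC control against sham control, where that of all genes was 0.10, and 0.35 in TAC dantrolene against TAC control, where that of all genes was 0.02. In the second comparison 13 of 14 fitted values were positive. Tbx5, a T-box factor of the atria and conduction system, had mean CPM of 21.4 in sham control, 9.18 in TAC control and 16.1 in TAC dantrolene, with differences of -1.22 (SE 0.37, adjusted p = 0.494) and 0.81 (SE 0.37, adjusted p = 1.00). Over the 8 libraries Tbx5 (-1.31, adjusted p = 0.0312), Gata4 (-0.96, adjusted p = 0.0454) and Irx4 (-0.95, adjusted p = 0.0394) fell in TAC control. Tbx5 (1.15, adjusted p = 0.0458) and Irx4 (0.96, adjusted p = 0.0419) rose in TAC dantrolene against TAC control. These are 3 and 2 of 14 genes, where 3.21% and 3.17% of all genes were called. Both comparisons use the same TAC control mice, so low values there lower the first difference and raise the second.

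Markers of other cell types moved with some groups. All 13 node and conduction markers had a row, and their summed level was 146 to 152 CPM in sham control, 123 to 144 in sham dantrolene, 133 to 145 in TAC control and 123 to 155 in TAC dantrolene. Smoc2 alone had a mean of 85.0 CPM over the 12 libraries and so carries much of the sum. In TAC control against sham control 7 of the 10 tested were lower, with a median of -0.49 (log2) against 0.10 for all genes. In TAC dantrolene against TAC control 5 were higher and 5 lower, with a median of 0.05 against 0.02. Of the 10 tested 0 passed with 12 libraries, and without the 4 libraries Cacna1g, a T-type calcium channel of pacemaker cells, fell by 1.18 on the log2 scale in TAC control against sham control (adjusted p = 0.0463 by edgeR, and 0.624 with 12 libraries). Of the 8 atrial markers 7 had a row, and they summed to 264 to 599 CPM in sham control, 333 to 465 in sham dantrolene, 756 to 2070 in TAC control and 157 to 476 in TAC dantrolene. That list includes Nppa, which ventricular myocytes also make under load and which differed by 2.30 (log2, SE 0.57, adjusted p = 0.441) in TAC control. In the 8 libraries Nppa (3.17, adjusted p = 0.0117) and Dkk3 (2.36, adjusted p = 0.0251) rose in TAC control against sham control, and Nppa fell in TAC dantrolene against TAC control (-3.07, adjusted p = 0.0151). Of the 10 ventricular myocyte markers Myh6, the alpha myosin heavy chain, rose in that comparison (1.42, adjusted p = 0.0207), as did Irx4. These are 2 of 10. Fabp3 (-0.89), Myl2 (-0.87), Myl3 (-0.29), Pln (-0.26) and Tnni3 (-0.0085) went the other way without a call. Of all genes 3.17% were called there, and 3.21% in TAC control against sham control. Epicardial and mesothelial markers (7) summed to 1.59 to 2.89 CPM in sham control, 3.68 to 9.71 in sham dantrolene, 4.52 to 37.6 in TAC control and 4.01 to 29.9 in TAC dantrolene. Fibroblast markers (7) summed to 448 to 581 CPM in sham control, 600 to 721 in sham dantrolene, 424 to 1433 in TAC control and 413 to 728 in TAC dantrolene. With 12 libraries 0 of them passed, and 6 of 7 were lower in TAC dantrolene than in TAC control, with a median of -0.80 (log2). In the 8 libraries the collagen genes Col1a1 (1.22, adjusted p = 0.0251), Col1a2 (1.23, adjusted p = 0.0184) and Col3a1 (1.30, adjusted p = 0.0231) rose in TAC control against sham control. The same 3 fell in TAC dantrolene against TAC control, at -1.07 (adjusted p = 0.0372), -0.83 (adjusted p = 0.0494) and -1.18 (adjusted p = 0.0316), the comparison in which Hcn4 was called. It uses the same TAC control mice as the rise.

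Endothelial markers (7) summed to 815 to 867 CPM in sham control, 839 to 893 in sham dantrolene, 868 to 1073 in TAC control and 635 to 942 in TAC dantrolene, and 6 of 7 were lower in TAC dantrolene than in TAC control with 0 calls. Arterial endothelial markers (7) summed to 106 to 161, 119 to 150, 95.3 to 154 and 94.5 to 203 CPM in the same order of groups. Smooth muscle and pericyte markers (8) summed to 535 to 690, 465 to 657, 638 to 841 and 661 to 825 CPM in that order. The pericyte gene Rgs5 rose in TAC control against sham control without the 4 libraries (1.77, adjusted p = 0.0303). It was the only call of the 8, where 3.21% of all genes were called. Kcnj8 (-0.34), Pdgfrb (-0.31) and Abcc9 (-0.031) went the other way without a call. Cnn1 (0.81), Tagln (0.80), Myh11 (0.51) and Acta2 (0.18) were positive without a call. Neuron and Schwann cell markers (6 of 8 with a row) summed to 7.55 to 14.4, 6.87 to 11.0, 7.20 to 12.3 and 6.08 to 20.4 CPM. The part of these cell types in the values of the 6 genes was not tested.

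The genes most like each of the 6 were taken as the 2 with the highest Pearson r of log2 CPM over the 12 libraries, among 8826 genes with a mean of at least 5 CPM. For Gja1 they were Sccpdh (r = 0.98) and Hs2st1 (0.97), and for Hcn2 Klhdc3 (0.98) and Med22 (0.97). For Hcn4 they were Celsr2 (0.96) and Hdac6 (0.91), for Gjc1 Mcl1 (0.92) and Pde4b (0.92), for Scn4b Fbxl14 (0.90) and Gclm (0.90), and for Gja5 Carhsp1 (0.89) and Lasp1 (0.85). Over the 8 libraries that do not stand apart r was 0.90 for Sccpdh, 0.94 for Klhdc3, 0.98 for Celsr2 and 0.69 for Pde4b with the same partners. Ranked over those 8 libraries, the 2 most alike genes were others for each of the 6. For Hcn4 the first was Rbm20 (r = 0.997 over 8, 0.038 over 12). For Scn4b it was Rn18s-rs5 (0.97 and -0.32) and for Gja1 Rfwd3 (0.92 and 0.97). The libraries share the length-dependent difference described above, and these values are a description with no test.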

How the data were processed

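Libraries of polyadenylated RNA, 1 per mouse and 12 in all, were read from both ends over 150 nucleotides, per the labels' protocols. For processing, GRCm38, bcl2fastq, TopHat2 and edgeR appear in the submitters' processing notes, without roles. Which tool counted reads, and whether it used strand, is not given in the sources used here. Tables deposited by the authors hold whole-number counts per gene, not normalised, and FPKM values, scaled to gene length and library size. Samples were grouped by title. Counts were tested with edgeR 4.0.16 in R 4.3.3: filterByExpr (minimum count 10, minimum total 15), TMM, all 12 libraries in a robust quasi-likelihood fit of 4 group means with 8 residual degrees of freedom, and Benjamini-Hochberg adjustment over 14965 genes (threshold 0.05). The filter took out 0.0418% of counts, 1 row without a symbol was kept by its identifier, and the common biological coefficient of variation was 0.443. FPKM ratios were tested by exact permutation (scipy 1.17.1, smallest possible p 0.0022). The fit was tested on simulated data. It recovered 1.37%, 39.7% and 72.9% of 2-, 4- and 8-fold changes for TAC dantrolene against TAC control and 0%, 11.1% and 45.2% for the interaction.

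The 6 genes and the lists were chosen with earlier results of these data known. Named genes are the 6, list members that passed (with 12 or 8 libraries) or otherwise up to 4 of a list with the smallest unadjusted p in TAC control against sham control or TAC dantrolene against TAC control, and the 2 genes most like each. Outside that rule, abundant list members, marker genes and genes most like the 6 over 8 libraries were named after their values were seen. The values of some list members are not reported here. Alternatives were DESeq2 1.42.0, other scalings, no filter, no mitochondrial genes, only the groups compared, each library left out, the replicate block and, added after the data were seen, the 4 libraries left out. No pair of libraries agreed within sampling noise (lowest chi-square per gene 34.1). Same-numbered mice deviated together within an arm (correlations 0.465, 0.366 and 0.672 in sham, 0.556, 0.300 and 0.613 in TAC), and the numbers were taken to pair the drug comparisons. Some unlike numbers correlated too. In sham, control 2 with dantrolene 1 gave 0.375 and control 1 with dantrolene 2 gave 0.305. In TAC, control 2 with dantrolene 3 gave 0.221. The other unlike numbers ran from -0.616 to 0.093. Sham pair 3 and TAC pair 1 are pairs of libraries apart. Deviations from a mean of 3 mice cancel out within a group. A shared deviation of 1 such pair therefore also draws the other mice of both groups together. These correlations thus cannot show that the numbers pair mice. The titles name biological replicates and no pairing, so the block is an assumption. Between TAC and sham mice of the same number the values were mixed (-0.294, 0.283 and -0.304 in controls, -0.377, 0.270 and -0.313 with dantrolene), so the numbers were not taken to pair those.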

Additional observations from a re-analysis of the deposited data

Results flagged for a closer look

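Gja5 in sham control mouse 2 measured 12.7 CPM, far below the 5 other sham libraries (17.1 to 19.7) relative to their range, and Hcn2 in sham control mouse 3 measured 72.9 CPM, far above the 5 others (42.1 to 53.5). Sham control 3 is a library apart, and sham control 2 is not. With 12 sets of 6 libraries looked at, chance alone flags about 1 in 20. The difference between surgery arms in the response to dantrolene was 0.63 (log2 interaction) for Gja1 and -0.57 for Gja5, flagged because every same-numbered pair of 1 arm lay on the opposite side of 0 from every pair of the other. The interaction test did not pass for either gene (adjusted p = 1.00 by edgeR, and 0.419 and 0.428 with the replicate block).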

How the results depend on the processing

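With 12 libraries 0 of the 6 genes were called under any alternative set out beforehand. Leaving out the 4 libraries, chosen after the data were seen, gave 1 call (Hcn4, TAC dantrolene against TAC control). The replicate block changed no call: it called 0 of the 6 genes and 0 of all genes in each comparison, and turned Scn4b in TAC dantrolene against sham dantrolene to -0.011 and Hcn2 in TAC control against sham control to -0.21. Genes called by DESeq2 numbered 83 for TAC control against sham control, 12 for TAC dantrolene against TAC control, 4 for TAC dantrolene against sham dantrolene, 1 for the interaction, 55 for all TAC against all sham and 1 for all dantrolene against all control, where edgeR called 0. Without the filter edgeR called 3, 1 and 4 genes for the first 2 and for all TAC against all sham, and with only the 2 groups 1 for the first. Without the 4 libraries it called 484, 478, 7 (interaction) and 67 (all TAC against all sham). Leaving out each library in turn gave 0 to 15 genes for the first, the highest without TAC control 1, 0 to 1 for the second and 0 to 1 for all TAC against all sham.

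These direction changes are of values that did not pass, and the cause was not tested. Library totals turned TAC control against sham control to -0.012 for Gja5 and -0.25 for Hcn2, and leaving out mitochondrial genes turned Scn4b in TAC dantrolene against sham dantrolene to -0.0032. Without the 4 libraries Hcn2 was -0.58 in TAC control against sham control, 0.055 in TAC dantrolene against TAC control and 0.074 in sham dantrolene against sham control, and Hcn4 was -0.10 in the last and 0.28 in TAC dantrolene against sham dantrolene. Log2 ratios then were -0.087 (Gja5 to Gja1), 0.00045 (Gjc1 to Gja1) and 0.13 (Hcn4 to Hcn2) for TAC against sham, and -0.21 (Gjc1 to Gja1) for dantrolene against control. Gjc1 to Gja1 for TAC against sham was 0.00062 from counts and 0.018 with 0.1 added to FPKM.

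Leaving out each library in turn gave these ranges. In sham dantrolene against sham control they were -0.10 to 0.26 (Scn4b), -0.50 to 0.035 (Gja1), -0.30 to 0.14 (Hcn2) and -0.48 to 0.47 (Hcn4). In TAC dantrolene against TAC control they were -0.035 to 0.98 (Gja1), -0.020 to 0.77 (Gjc1), -0.93 to 0.46 (Hcn2) and -0.052 to 1.29 (Hcn4). In TAC dantrolene against sham dantrolene they were -0.14 to 0.32 (Scn4b), -0.17 to 0.55 (Gja1), -0.036 to 0.28 (Gjc1) and -0.71 to 0.13 (Hcn4). Hcn2 in TAC control against sham control ran from -0.84 to 0.51, and the interaction from -0.78 to 0.61 (Hcn2) and -0.20 to 1.18 (Hcn4). Ratios for TAC against sham ran from -0.17 to 0.47 (Gja5 to Gja1) and -0.10 to 0.18 (Gjc1 to Gja1), and for dantrolene against control from -0.32 to 0.25 and -0.095 to 0.18.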
